A study of Mus musculus with 31 samples.

Results

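Germline and meiosis genes were examined for repressive histone marks in mouse primordial germ cells, the fetal cells from which oocytes and sperm derive. The set holds 7 genes, Dazl, Ddx4, Sycp3, Stra8, Rec8, Hormad1 and Mael, and each is represented by a fixed window of 30 to 80 kb in the mm9 genome. The members are the peaks of H3K27me3 and H3K9me3 that overlapped a window by at least 1 bp, which were 27 of the 265293 peaks in 18 lists. The windows were set by gene name, but with earlier results of these data known. Wild-type cells were sorted at E13.5 from female embryos, at E13.5 from male embryos and at E10.5 (embryonic days), from the cross that the labels give as C57BL/6 x GOF18delta_PE-EGFP, a line with a germ-cell EGFP reporter. Each of these 3 groups has 3 libraries of H3K27me3 and 3 of H3K9me3. E10.5 cells were pooled across embryos of unstated sex, so in any comparison with E10.5 stage and sex cannot be told apart. Peak lists hold no expression, so the identity of the sorted cells was not checked against markers here. The series asked how these marks behave while DNA methylation is erased across the germ-cell genome.

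Dazl and Ddx4 encode RNA-binding proteins that mark committed germ cells, and Mael acts in the piRNA pathway that restrains transposons. Stra8 is the retinoic acid-responsive gate to meiosis, which female germ cells enter in the fetal ovary and male germ cells only after birth. Sycp3 and Hormad1 encode proteins of the meiotic chromosome axis, and Rec8 encodes the meiotic cohesin subunit. In somatic cells and early germ cells many genes of this kind are kept silent by promoter DNA methylation and by a noncanonical Polycomb complex that E2F6 and MGA with MAX bring to DNA. H3K27me3 is the mark of Polycomb repressive complex 2, and H3K9me3 is a mark of heterochromatin and silenced repeats.

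Promoter sequences of all 7 genes were found in RefSeq (GRCm38.p6), as 300 bases that run from 250 before to 50 after a gene start. These are of another build than the mm9 peaks, so no peak was placed on them. Of the members, 3 are shown as examples that differ in how often their windows held H3K27me3: Stra8 in 5 lists, Mael in 1 and Hormad1 in none. Ddx4 also had it in 1 list, and Dazl, Sycp3 and Rec8 in none. The 3 shown lie at chr6:34920698-34920997 on the plus strand, at chr1:166238695-166238994 on the minus strand and at chr3:95559427-95559726 on the plus strand, and the first of 2 Hormad1 entries is given. Capitals mark the MAX-type E-box CACGTG, the E2F-type site GCGGGAA and the AGGTCA half-site of retinoic acid receptors, each searched on both strands, and no 2 matches overlapped.
Stra8: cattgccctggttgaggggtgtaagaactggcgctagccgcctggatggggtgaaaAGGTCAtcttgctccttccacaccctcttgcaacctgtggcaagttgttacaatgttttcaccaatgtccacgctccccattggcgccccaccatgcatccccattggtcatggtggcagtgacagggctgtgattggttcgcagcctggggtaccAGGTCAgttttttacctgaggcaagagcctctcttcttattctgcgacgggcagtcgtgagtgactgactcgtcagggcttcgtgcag
Mael: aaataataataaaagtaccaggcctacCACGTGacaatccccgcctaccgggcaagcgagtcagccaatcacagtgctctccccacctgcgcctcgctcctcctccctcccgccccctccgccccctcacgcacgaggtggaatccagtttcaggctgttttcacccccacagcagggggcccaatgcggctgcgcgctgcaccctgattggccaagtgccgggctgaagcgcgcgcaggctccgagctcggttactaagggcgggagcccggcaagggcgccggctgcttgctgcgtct
Hormad1: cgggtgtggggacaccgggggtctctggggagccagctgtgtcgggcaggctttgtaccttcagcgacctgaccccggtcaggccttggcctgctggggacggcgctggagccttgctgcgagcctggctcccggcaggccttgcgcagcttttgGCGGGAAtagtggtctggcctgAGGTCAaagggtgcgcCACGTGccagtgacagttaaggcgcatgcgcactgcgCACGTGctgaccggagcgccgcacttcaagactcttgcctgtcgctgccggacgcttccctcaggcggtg
The Stra8 promoter had the fewest CpG dinucleotides of the 7 genes, 10, against 15 in Sycp3, 18 in Rec8, 24 each in Hormad1 and Mael, 28 in Dazl and 38 in Ddx4. The median over 32851 RefSeq promoter entries was 7. CACGTG occurred in the promoters of Ddx4, Sycp3, Hormad1 and Mael and in 7.15% of all entries. GCGGGAA occurred in Ddx4, Sycp3 and Hormad1 and in 4.60% of all entries. AGGTCA occurred 2 times in Stra8 and once each in Sycp3 and Hormad1, and in 16.3% of all entries. Dazl and Rec8 had none of these sequences, while Sycp3 and Hormad1 had all 3, and the windows of all of these genes were without H3K27me3 in any list. No match in this window says only that these letters are not there.

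The H3K27me3 lists held 359 to 23141 peaks over 0.159 to 35.5 Mb, and the H3K9me3 lists 1107 to 56632 peaks over 0.441 to 78.9 Mb. Sequencing depth is unknown, and a window with no peak may still carry the mark below the authors' threshold. The shortest H3K27me3 lists were those of E13.5 male replicate 2 with 359 peaks and E10.5 replicate 2 with 1703, against 11330 and 23141 in the other E10.5 lists. Nothing in the labels says that replicates came from separate animals, so errors and p-values reflect the spread among these libraries alone, and that spread may be technical. The genome was cut into 49447 autosomal tiles of 50 kb, the mean length of the 7 windows, to show what any such region holds.

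Most windows held no peak of either mark. Of the 126 combinations of window and list, 118 had none, 7 had H3K27me3 and 1 had H3K9me3. Dazl, Sycp3, Rec8 and Hormad1 had no peak in any of the 18 lists, as had 43.0% of all tiles. By mark, 4 of 7 windows had no H3K27me3 in any of 9 lists, against 80.1% of tiles, and 6 of 7 had no H3K9me3 in any of 9, against 56.0% of tiles. H3K27me3 lay in at least 2 of 3 libraries in 0 of 7 windows in E13.5 female cells, where 4.26% of tiles did so. In E13.5 male cells 1 of 7 windows did, against 2.93% of tiles, and at E10.5 1 of 7 did, against 9.36% of tiles. That window was Stra8 in both groups. H3K9me3 lay in at least 2 of 3 libraries in 0 of 7 windows in each group, while it did so in 10.1% of tiles in E13.5 female cells, 31.7% in E13.5 male cells and 5.27% in E10.5 cells. With 1 library enough, H3K27me3 lay in 1 of 7 windows for E13.5 female cells, 1 for E13.5 male cells and 3 for E10.5 cells, against 9.75, 6.88 and 16.8% of tiles. H3K9me3 then lay in 0, 1 and 0 of 7 windows, against 21.2, 42.1 and 25.1% of tiles. In all 3 libraries of a group, 0 of 7 windows held either mark, against 1.85, 0.402 and 1.81% of tiles for H3K27me3 and 3.94, 20.8 and 0.433% for H3K9me3. A tile of 50 kb is only an approximate yardstick, since longer regions hold peaks more often: in E13.5 male cells H3K9me3 was in at least 2 libraries in 22.8% of tiles of 30 kb, the length of the Rec8 window, and in 42.0% of tiles of 80 kb, that of the Ddx4 window.

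**Figure D1:**
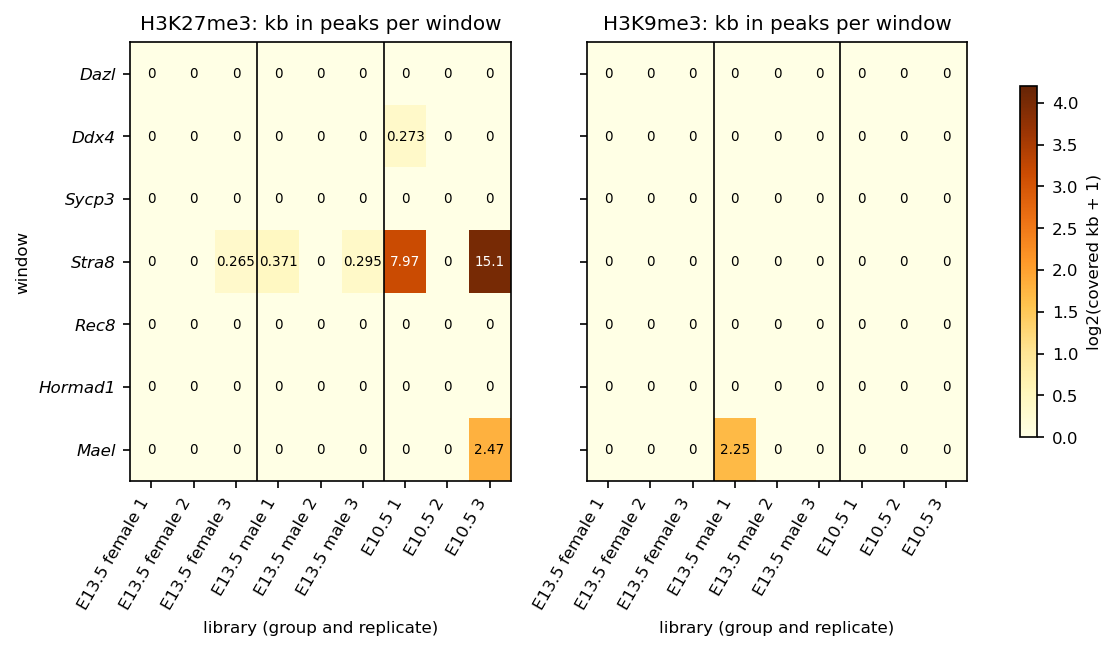
Length in peaks, in kb, in each of the 7 windows (rows) in each library (columns, by group and replicate) for H3K27me3 (left) and H3K9me3 (right), with the value written in each cell and the colour on the log2(covered kb + 1) scale. Stra8 is the only row with H3K27me3 in several lists, with 7.97 and 15.1 kb in E10.5 replicates 1 and 3, and a single H3K9me3 cell is filled, 2.25 kb in the Mael window of E13.5 male replicate 1.

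Stra8, the gate to meiosis, was the member with the most H3K27me3 (chromosome 6 from 34855000 to 34900000). Its window held 0, 0 and 0.265 kb in E13.5 female replicates 1, 2 and 3. It held 0.371, 0 and 0.295 kb in E13.5 male replicates 1, 2 and 3, and 7.97, 0 and 15.1 kb in E10.5 replicates 1, 2 and 3. The E10.5 libraries thus split, with replicates 1 and 3 far above every E13.5 library. Replicate 2 was at 0 kb, level with the lowest E13.5 libraries, so the groups overlap. Replicates 1 and 3 were also the longest H3K27me3 lists, at 19.9 and 35.5 Mb. Replicate 2 covered 2.08 Mb, and the E13.5 lists 0.159 to 5.22 Mb. As a share of list length, Stra8 held 401 and 424 ppm in E10.5 replicates 1 and 3. It held 64.2 ppm in female replicate 3 and 150 and 74.0 ppm in male replicates 1 and 3. The part of list length in the split was not tested. Peak names of the replicate 3 list give an input made for H3K9me3, unlike those of the other H3K27me3 lists, and the part of this in its 15.1 kb was not tested. The labels give only 1 E10.5 input of replicate 3, with no mark in its title, and whether it is the input named was not checked. A peak in at least 5 of the 9 libraries, as here, was found in 3.81% of tiles. Peaks of H3K27me3 filled 17.7 and 33.5% of the window in E10.5 replicates 1 and 3, at or above the length in 86.8 and 92.6% of the tiles that had a peak in those lists. In the 3 E13.5 lists with a peak the covered length was modest, at or above that of 22.6 to 37.1% of tiles with a peak.

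At E13.5 the H3K27me3 peaks at Stra8 lay in one short stretch. Each of the 3 E13.5 lists had a single peak, of 265 bp in female replicate 3 (34871479 to 34871743), 371 bp in male replicate 1 (34871206 to 34871576) and 295 bp in male replicate 3 (34871545 to 34871839). They overlapped each other in 32 bp, and together spanned 634 bp. Both E10.5 lists with H3K27me3 here covered all of each of them, with a peak of 1691 bp in replicate 1 and one of 8600 bp in replicate 3. By the authors' score these E13.5 peaks ranked at or above 86.8, 56.2 and 86.3% of the peaks of their own lists, in the same order. Each score is the authors' value for that peak, on a scale not known here, so these ranks hold only within a list. A peak in at least 3 of the 6 E13.5 lists was found in 3.97% of tiles.

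At E10.5 the mark was spread over the first part of the window and beyond it. In replicate 1, 9 peaks held 5.10 kb in the first 15 kb of the window, 2.87 kb in the next 15 kb and 0 kb in the last. In replicate 3, 9 peaks held 9.25, 5.37 and 0.448 kb in these parts. The 2 libraries shared 5.86 kb, 73.5% of the length in replicate 1 and 38.9% of that in replicate 3. In the 25 kb before the window, replicate 1 had 8 further peaks and replicate 3 had 7, which summed to 8.56 and 12.3 kb, while no list had one in the 25 kb after it. In RefSeq gene order Stra8 lies between Wdr91 and Slc23a4, so part of the signal may belong to a neighbour. H3K9me3 had no peak in the Stra8 window, and its nearest peak was 167 to 2832 kb away.

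**Figure D2:**
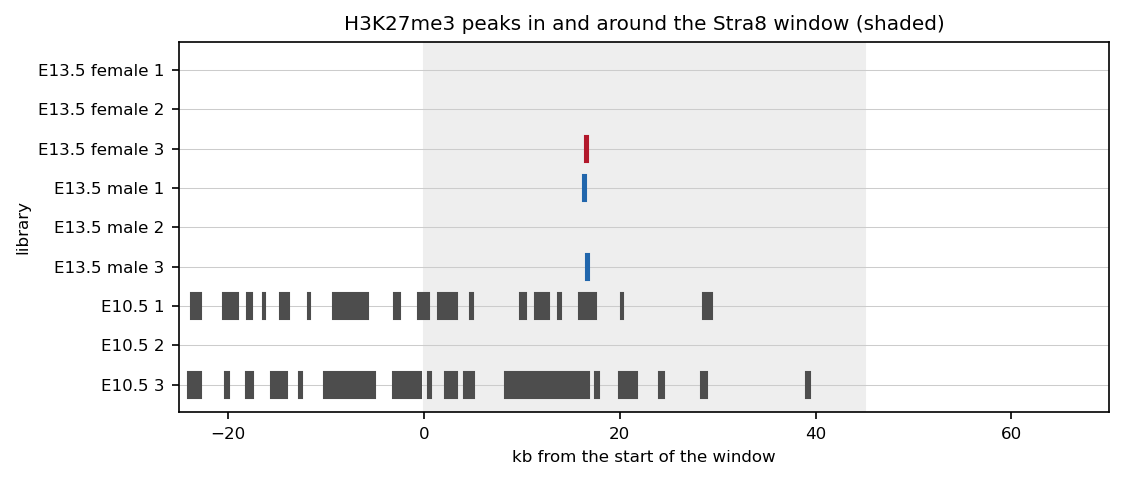
H3K27me3 peaks (blocks) in the Stra8 window (shaded) and 25 kb on each side, one row per library, against the distance in kb from the start of the window. In E10.5 replicates 1 and 3 blocks run from before the window into its first 30 kb, and the short blocks of 265, 371 and 295 bp in 3 E13.5 libraries stand at the same place.

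Stra8 was the only window with a peak in enough libraries to be tested, at least 3 of 9, and none of its 4 comparisons passed. Covered length averaged 0.0883 ± 0.153 kb in E13.5 female, 0.222 ± 0.196 kb in E13.5 male and 7.68 ± 7.54 kb in E10.5 libraries (SD, n = 3 each). On the log2(covered kb + 1) scale the difference from E10.5 was -2.28 ± 0.88 for female cells (SE, limma adjusted p = 0.237), -2.11 ± 0.88 for male cells (adjusted p = 0.160) and -2.20 ± 0.76 for all E13.5 cells (adjusted p = 0.117). This scale understates differences of low values. Over the 3832 tiles tested the median difference was -0.95, -1.17 and -1.08 in the same comparisons, and limma called 0.130, 1.25 and 4.28% of them lower and 0.0261, 0.0522 and 0.0261% higher at E13.5. These counts of tiles depended on the peaks kept: with peaks of a score of at least 20, 26.4, 25.5 and 40.6% of 2267 tiles were called lower, and Stra8 had limma adjusted p = 0.0895, 0.0943 and 0.0525. That fixed cut kept unlike shares of the lists. The median score was 17.5 to 28.3 in E13.5 and 19.9 to 25.7 in E10.5 lists, and the lowest score of E10.5 replicate 2 was 19.9. The part of this in the calls was not tested. With the replicate number as a block, limma called 0 tiles for male minus E10.5 cells, though 1149 had an unadjusted p under 0.05, and at Stra8 gave adjusted p = 0.163. The check of pairing was met for male and E10.5 cells, but the block also took in the female libraries, for which it was not met. Female minus male cells gave -0.16 ± 0.88 (SE, limma adjusted p = 1), where 0% of tiles were called in either direction, and 31 had an unadjusted p under 0.05. Exact two-sided permutation tests of the covered kb gave p = 0.4 for each of the 3 comparisons of 3 with 3 libraries, which cannot go below 0.1, and p = 0.167 for 6 E13.5 against 3 E10.5 libraries, which cannot go below 0.0119.

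The calls at Stra8 turned on E10.5 replicate 2. Without that list the differences from E10.5 were -3.47, -3.31 and -3.39 for female, male and all E13.5 cells, with limma adjusted p = 0.000411, 0.000252 and 0.000136. In that fit 66.2, 72.7 and 73.9% of the tiles tested were called lower at E13.5 as well. Most tiles tested thus gave the same call as Stra8 once that list was left out. With all 9 lists, other scales gave other sizes and no call at Stra8. The differences were -3.90, -3.12 and -3.51 as log2(covered kb + 0.1) (limma adjusted p of 0.166 to 0.343), and -1.33, -0.86 and -1.10 for the share of each list's covered length as log2(ppm + 100) (adjusted p of 0.584 to 0.629). These scales have different offsets, so their sizes cannot be set against each other. No window separated any 2 groups, in the sense that all libraries of one and none of the other had a peak in it. Of all tiles, H3K27me3 was in all E10.5 libraries alone in 0.245% against E13.5 female, 0.313% against E13.5 male and 0.140% against all E13.5 libraries, and the other way round in 0.0324, 0.0364 and 0.00809%. It was in all female and no male E13.5 libraries in 0.202% of tiles, and in all male and no female ones in 0.00809%. H3K9me3 was in all male and no female E13.5 libraries in 5.18% of tiles, and in all male and no E10.5 libraries in 3.78%. It was in all female and no E10.5 libraries in 0.0890%, and in all E13.5 and no E10.5 libraries in 0.0728%.

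Mael, of the piRNA pathway, had both marks, each in a single list (chromosome 1 from 168120000 to 168180000). H3K27me3 covered 0 kb in all 3 E13.5 female, all 3 E13.5 male and E10.5 replicates 1 and 2, and 2.47 kb in E10.5 replicate 3. This is the list whose peak names give an H3K9me3 input. That length came from peaks of 1601 and 865 bp near the end of the window, which ranked low to middling in their list, at or above 11.0 and 45.3% of its scores. H3K9me3 covered 2.25 kb in E13.5 male replicate 1, in peaks of 533, 1028 and 690 bp, and 0 kb in the other 8 libraries. Male replicate 1 is the longest H3K9me3 list, and 38.1% of all tiles had a peak in it. The marks did not meet within the window, as these H3K9me3 peaks ended at 168150366 and the H3K27me3 peaks began at 168173220.

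More lists had peaks just outside the Mael window. Within 25 kb after its end, H3K27me3 covered 0, 3.26 and 1.28 kb in E13.5 female replicates 1, 2 and 3. It covered 0, 0 and 0.809 kb in male replicates, and 3.13, 0 and 7.47 kb in E10.5 replicates, and the nearest of these peaks began 0.882 to 6.76 kb from the window. Within 25 kb before its start, H3K9me3 covered 0, 1.71 and 0 kb in female, 3.18, 1.60 and 1.41 kb in male and 0, 3.27 and 0 kb in E10.5 replicates. H3K9me3 was there in 3 of 3 male, 1 of 3 female and 1 of 3 E10.5 libraries. All 3 male libraries had it in 20.8% of tiles. At least 1 of 3 libraries had it in 21.2% of tiles in female and 25.1% in E10.5 cells. The male lists covered 25.7 to 78.9 Mb, against 4.28 to 12.2 Mb in female and 0.441 to 46.6 Mb in E10.5 lists. H3K27me3 after the window was in 5 lists, and at least 5 of 9 libraries had it in 3.81% of tiles. Tiles are longer than the stretches of 25 kb, so these shares are only a rough yardstick. With the window widened by 25 kb on each side, limma gave no call at Mael for either mark, with adjusted p of 0.201 to 1 for H3K27me3 and 0.148 to 1 for H3K9me3. In RefSeq order the neighbours of Mael are Gpa33 and Ildr2, and the peaks on the 2 sides were not assigned to a gene.

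Dazl, a regulator of translation needed by germ cells of both sexes, had neither mark in its window (chromosome 17 from 50400000 to 50450000), but H3K9me3 lay close by. In the 25 kb before the window H3K9me3 covered 1.89, 0.158 and 0 kb in E13.5 female replicates 1, 2 and 3. It covered 3.83, 3.48 and 2.79 kb in E13.5 male replicates and 0, 4.96 and 0.161 kb in E10.5 replicates. The nearest peak was 6.52 to 11.4 kb from the window in these 7 lists and 183 kb away in each of the other 2. Most tiles were no nearer to a peak: 56.6, 63.9 and 69.7% of tiles were at least as far from one in male replicates 1, 2 and 3. In the other lists 63.9 to 98.1% were. In covered length each male library was above each female library, and the E10.5 libraries lay on both sides of them. Each male H3K9me3 list was also longer than each female one, as given for Mael, and the part of list length in the difference was not tested. For the widened window, female minus male cells gave -1.54 ± 0.69 (SE, limma adjusted p = 0.109), where that fit called 6.20% of tiles lower in female cells (6.59% with the windows at their own length), and the other 3 comparisons had adjusted p of 0.204 to 1. H3K27me3 was far from Dazl, with the nearest peak 387 to 4723 kb away.

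**Figure D3:**
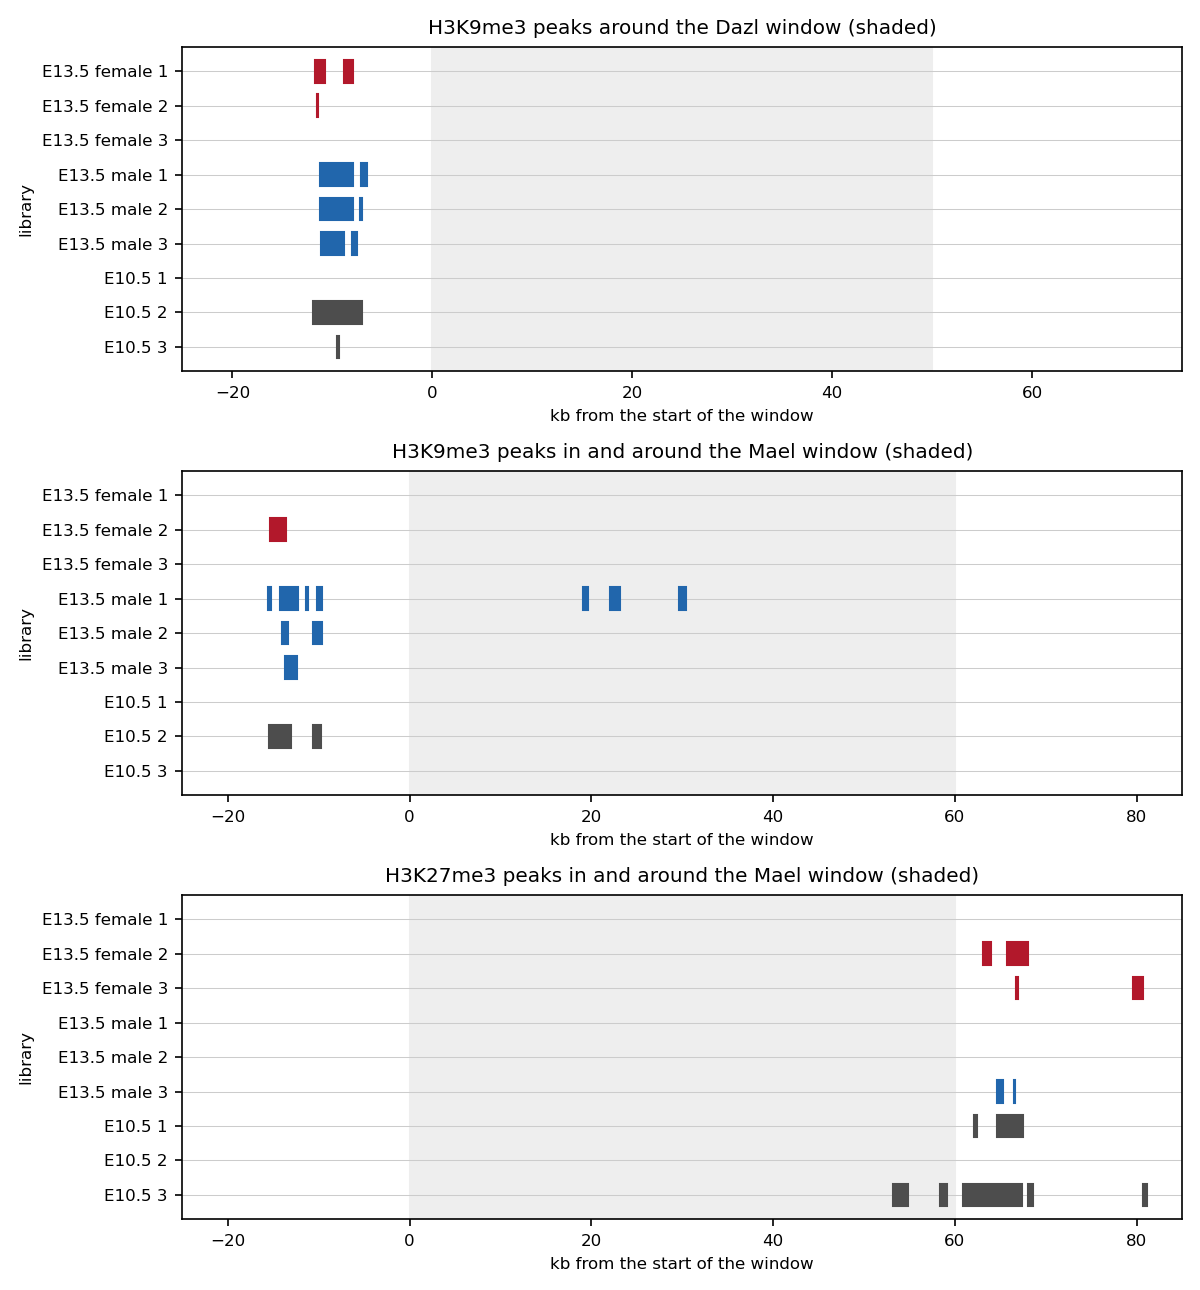
H3K9me3 peaks around the Dazl window (top), H3K9me3 peaks around the Mael window (middle) and H3K27me3 peaks around the Mael window (bottom), one row per library, against the distance in kb from the start of the window (shaded). H3K9me3 stands 6.52 to 11.4 kb before Dazl in 7 lists, and the Mael window has H3K9me3 before it and H3K27me3 after it in 5 lists each.

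Ddx4, which encodes the germ-cell RNA helicase also called Vasa, had 1 peak in the longest of the windows (chromosome 13 from 113380000 to 113460000). It was an H3K27me3 peak of 273 bp in E10.5 replicate 1, from 113443298 to 113443570, at least as wide as 7.71% of the peaks of that list. The other 8 H3K27me3 libraries had 0 kb there. H3K9me3 was absent from the window in all 9 lists, with the nearest peak 97.4 to 6819 kb away. Over the 9 lists, 5.40 to 37.2% of tiles were at least as far from a peak as the Ddx4 window.

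The genes of the meiotic chromosome axis and cohesin, Sycp3, Rec8 and Hormad1, had no peak of either mark in any list, nor within 25 kb of their windows. For Sycp3 (chromosome 10 from 87910000 to 87950000) the nearest H3K27me3 peak was 87.8 to 7956 kb away and the nearest H3K9me3 peak 138 to 4987 kb. For Rec8 (chromosome 14 from 56225000 to 56255000), H3K27me3 was 73.8 to 76.2 kb away in 6 of 9 lists, and 130, 1423 and 7632 kb away in E13.5 female replicate 1, E10.5 replicate 2 and E13.5 male replicate 2. For Hormad1 (chromosome 3 from 95350000 to 95395000) H3K27me3 was 369.9 to 454 kb away in all 9 lists. Its nearest H3K9me3 peak was 118 to 125 kb away in 7 of 9 lists. The nearest H3K9me3 peak to Rec8 was 157 to 162 kb away in 5 lists, those of E13.5 male replicates 1, 2 and 3 and of E10.5 replicates 1 and 2, and 344 to 1289 kb away in the other 4. Over the 9 lists, 2.87 to 80.4% of tiles were at least as far from an H3K27me3 peak as Sycp3. The shares were 20.7 to 87.1% for Rec8 and 31.1 to 90.0% for Hormad1. For H3K9me3 they were 16.3 to 72.6% for Sycp3, 14.5 to 72.8% for Rec8 and 19.1 to 77.9% for Hormad1.

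The 7 windows together had more H3K27me3 than an average stretch of autosome in 3 lists, and Stra8 accounted for it. Of the summed window length 5.01% lay in peaks in E10.5 replicate 3, 2.35% in E10.5 replicate 1 and 0.106% in E13.5 male replicate 1, where 1.41, 0.789 and 0.0996% of the tile length did. Without Stra8 the shares were 0.809, 0.0895 and 0%, below those of the tiles. Stra8 was left out as the window with the most H3K27me3 in these same lists, so lower shares without it were bound to follow. In E13.5 male replicate 1 the only peak in any window was that of 371 bp at Stra8. For H3K9me3 the windows held 0.643% in E13.5 male replicate 1, against 2.99% of the tile length, and 0% in the other 8 lists, where 0.0142 to 1.75% of the tile length was in peaks.

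**Figure D4:**
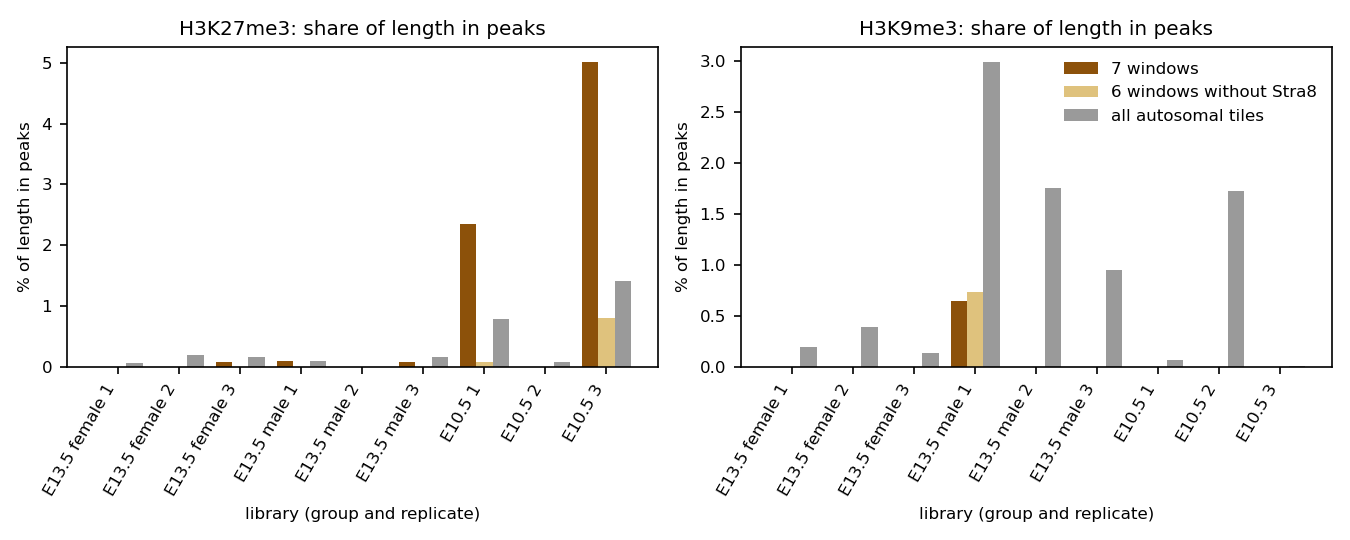
Share of length in peaks, in %, for the 7 windows together, the 6 windows without Stra8 and all autosomal tiles, by library (group and replicate) for H3K27me3 (left) and H3K9me3 (right). The windows exceed the tiles in E10.5 replicates 1 and 3 and narrowly in E13.5 male replicate 1, and without Stra8 they are below the tiles in every H3K27me3 list.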

How the data were processed

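The authors deposited a broad peak list for each of 18 ChIP libraries, and the peak names show an input for each call. For E10.5 H3K27me3 replicate 3 that input is named for H3K9me3, while the only E10.5 input of replicate 3 in the labels has no mark in its title. The label of an E10.5 H3K9me3 input, replicate 2, gives another stage than its title. Per the submitters' processing notes, the tools were MACS2 2.1.0, deepTools 3.3.0, SAMtools, Picard, BWA 0.7.5a and CASAVA 1.8.4, and the build was mm9. No role, threshold or filter is given in the sources used here. Per the labels' protocols, 1000 cells and 250 ng of antibody went into each native ChIP. The 13 input libraries were not analysed here. The authors' deposited score in column 9 ranked or filtered peaks within a list and nothing else.

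Windows, genes and tests were chosen with earlier results of these data known, and all 7 genes are named. Peaks were merged, 19 mitochondrial peaks were left out, and covered kb was summed in each window and in 49447 autosomal tiles of 50 kb. Windows and tiles with a peak in at least 3 of the 9 libraries of a mark entered 1 fit of log2(covered kb + 1) with limma 3.58.1 (R 4.3.3), with Benjamini-Hochberg adjustment over all of them and calls at 0.05. The fit was tested on simulated data. Exact permutation tests used scipy 1.17.1. Alternatives were other score minimums, overlaps, window lengths, scales and a replicate block, and leaving out libraries. The replicate numbers of the labels met the condition for pairing, a correlation of deviations over 0.1 in all 3 pairs, for H3K27me3 in male and E10.5 cells (0.145 to 0.319) and for H3K9me3 in female and E10.5 cells (0.165 to 0.411), and for no other comparison. The gene annotation used is of GRCm38 and gave only gene order and promoter sequences, so peaks were not placed on exons or promoters.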

Additional observations from a re-analysis of the deposited data

How the results depend on the processing

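The number of windows with a peak in at least 2 of 3 libraries was 0, 1 and 1 of 7 for H3K27me3 in E13.5 female, E13.5 male and E10.5 cells, and 0 in each group for H3K9me3. With at least 0.5 or 1 kb in peaks required, E13.5 male cells had 0 for H3K27me3. With all 3 libraries required, male and E10.5 cells had 0 each, and they also had 0 each among the 359 peaks of highest score per list. With 1 library enough, H3K27me3 was held in 1 window in female and 3 in E10.5 cells, and H3K9me3 in 1 in male cells. With windows widened by 25 kb, H3K27me3 counts were 1 in female and 3 in E10.5 cells, and H3K9me3 counts were 1 for female, 2 for male and 1 for E10.5 cells. Leaving out replicates 1, 2 and 3 in turn gave 0 to 1 for H3K27me3, in male as in E10.5 cells. The Stra8 differences on the log2(covered kb + 1) scale were -1.47 to -3.47 for female, -1.31 to -3.31 for male and -1.39 to -3.39 for all E13.5 minus E10.5 cells with 1 library left out, and only leaving out E10.5 replicate 2 made a call. As a share of list length they were -1.33, -0.86 and -1.10. The replicate block took in all libraries of a mark. The check of pairing was met only for male and E10.5 cells in H3K27me3 and for female and E10.5 cells in H3K9me3. With that block the Stra8 differences were -2.28, -2.11 and -2.20 and were not called (limma adjusted p = 0.222, 0.163 and 0.115). Counts of tiles called moved far more, and the fixed score of 20 kept unlike shares of the lists. For H3K27me3, lower calls in female, male and all E13.5 minus E10.5 cells were 5, 48 and 164. They were 0, 0 and 57 with the replicate block, 598, 577 and 921 at a score of at least 20, 27, 76 and 148 at scores from the list median up, 1, 1 and 1 among equal numbers of top-ranked peaks, 0, 0 and 83 with 0.1 kb added, and 0, 2 and 1 for the share of list length. Without E10.5 replicate 2 they were 2471, 2716 and 2761, and without any other single library at most 2, 0 and 4. For H3K9me3, 498 tiles were higher in male minus E10.5 and 900 lower in female minus male cells. These counts were 0 and 0 with the replicate block, 1 and 1 at a score of at least 20, 154 and 156 at scores from the list median up, 9 and 17 among equal numbers of top-ranked peaks, 1180 and 2161 with 0.1 kb added, and 0 and 14 for the share of list length. They were 8220 and 7818 without E10.5 replicate 2, 2201 and 4269 without male replicate 3, and 0 and 0 without any other single library. No value could be had for Stra8 among the 359 top-ranked peaks, and the fit with no filter was not run, because most tiles then have no variance. Lists without read counts limit every absence here to the authors' threshold.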
